A study of Mus musculus with 12 samples.

Results

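The genes described here are 10 protein-coding mouse genes of the synaptonemal complex and of the chromosome axis on which it forms: Sycp1, Sycp2, Sycp3, Syce1, Syce2, Syce3, Tex12, Hormad1, Hormad2 and Trip13. They were chosen by name, from 21951 protein-coding genes of the GENCODE M21 annotation. Sites of transcription initiation at these genes were taken from 3 lists of dREG peaks, 1 list per substage of prophase I. dREG is a machine-learning caller that finds regions where nascent RNA reads carry the pattern of transcription initiation. It gives each peak a score and a p-value. A promoter peak of a gene was a peak whose nearest edge lay under 1000 bp from any annotated transcription start site (TSS) of that gene, and a gene with at least 1 such peak is called below. All other peaks that overlapped the annotated span of a gene were gene-body peaks. The promoter peaks of the 10 genes numbered 26 of the 71107 peaks called in leptonema/zygonema, 26 of the 68352 called in pachynema and 18 of the 38603 called in diplonema.

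Nascent RNA was measured by leChRO-seq, a run-on assay in which engaged RNA polymerase on isolated chromatin adds biotin-labelled nucleotides to the RNA that it is making. Cells came from testes of adult wild-type mice and were enriched for leptonema/zygonema, pachynema or diplonema by STAPUT, a sedimentation at unit gravity that separates cells by size and density. There were 4 libraries for each substage, 12 in all, and no treatment or mutant allele was used in them. The peaks were called on the merged libraries of each substage, so each value below is a single value with no replicate spread, and no test between substages was made. The strain of the mice is not assigned to libraries in the sources used here. The purity of the fractions was judged by staining for SYCP3 and γH2AX, and SYCP3 is the product of 1 of the 10 genes. The methods name spermatogenic cells of other stages as the possible contaminants, and the study describes most of the contaminating cells as elongated spermatids. In such fractions, fewer cells of a type and less transcription per cell cannot be told apart.

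The synaptonemal complex is the protein structure that holds homologous chromosomes together along their length during prophase I of meiosis. In leptonema each chromosome forms an axis of cohesin, SYCP2, SYCP3 and the HORMA-domain proteins HORMAD1 and HORMAD2. From zygonema on, the transverse filament protein SYCP1 links the axes of homologues, with its head ends meeting in a central element built from SYCE1, SYCE2, SYCE3, TEX12 and SIX6OS1. TRIP13, an AAA ATPase, acts on HORMA-domain proteins and is needed for their removal from synapsed axes. The complex spans the whole length of each autosome pair in pachynema and comes apart in diplonema.

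The promoter sequences of 4 of these genes are given because they hold a CACGTG E-box, a GCGGGAA E2F sequence or both, as described further below. Each is printed 5′ to 3′ along the gene, from 250 bp before the TSS used for that gene up to the first annotated exon base, on the GRCm38.p6 genome (mm10) of RefSeq. Capitals mark every match to a searched sequence on either strand.
Sycp3, chr10:88459319-88459568, plus strand: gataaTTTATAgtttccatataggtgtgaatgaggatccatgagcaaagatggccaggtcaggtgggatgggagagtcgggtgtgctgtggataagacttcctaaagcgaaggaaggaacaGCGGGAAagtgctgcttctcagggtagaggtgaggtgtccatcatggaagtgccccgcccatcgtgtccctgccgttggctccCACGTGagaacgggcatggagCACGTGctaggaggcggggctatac
Hormad1, chr3:95559428-95559676, plus strand: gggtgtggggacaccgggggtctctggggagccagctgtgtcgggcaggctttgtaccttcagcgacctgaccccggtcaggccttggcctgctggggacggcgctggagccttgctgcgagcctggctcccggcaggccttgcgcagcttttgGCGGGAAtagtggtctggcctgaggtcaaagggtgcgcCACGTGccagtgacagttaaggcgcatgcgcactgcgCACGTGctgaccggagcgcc
Tex12, chr9:50561326-50561575, minus strand: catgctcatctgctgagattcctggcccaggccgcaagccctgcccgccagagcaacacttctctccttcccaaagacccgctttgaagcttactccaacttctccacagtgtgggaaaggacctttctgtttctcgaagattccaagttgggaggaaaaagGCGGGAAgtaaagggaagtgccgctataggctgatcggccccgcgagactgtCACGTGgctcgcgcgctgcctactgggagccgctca
Sycp1, chr3:102936101-102936340, minus strand: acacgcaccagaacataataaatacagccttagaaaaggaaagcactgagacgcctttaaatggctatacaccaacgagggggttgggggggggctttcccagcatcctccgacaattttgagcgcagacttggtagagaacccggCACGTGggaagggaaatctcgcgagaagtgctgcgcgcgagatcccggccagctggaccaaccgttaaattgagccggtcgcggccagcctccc

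All 10 genes were called in each of the 3 lists. Among all 21951 protein-coding genes, 60.1% were called in leptonema/zygonema, 60.5% in pachynema, 51.6% in diplonema and 49.4% in all 3. Each of the 10 genes also had an annotated TSS inside a peak in every list, which was true of 45.7% of protein-coding genes. The call itself therefore did not separate the substages for any of these genes. It held for all 10 when peaks with a score under 0.5 or a p-value above 0.01 were left out and when the lists were shortened to equal length.

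The dREG scores are not scaled between lists. Below, 3 values given together follow the order leptonema/zygonema, pachynema, diplonema. The median score over all peaks was 0.586, 0.572 and 0.532, and the highest score of a list 1.63, 1.58 and 1.43. The highest promoter score of each gene was therefore ranked within its list, as the percentile among all protein-coding genes called in that list. The median percentile of the 10 genes was 70.3, 79.2 and 85.2. The individual percentiles ran from 40.2 to 99.1, from 28.6 to 99.7 and from 29.0 to 99.6, and 8 of the 10 genes were above the 50th percentile in each list. From leptonema/zygonema to pachynema the percentile was higher for 6 of the 10 genes, against 51.2% of 12498 genes called in both lists. From pachynema to diplonema it was higher for 7 of the 10, against 40.0% of 11166 genes. From leptonema/zygonema to diplonema it was higher for 6 of the 10, against 43.7% of 10918 genes, and by 10 points or more for 5 of them, against 26.3%. It was lower by 10 points or more for 3 of the 10, against 39.1%. The median change over all genes was -4.38 points from pachynema to diplonema and 3.32 points over the 10 genes. The lists differ in the number of called genes, 13272 in pachynema and 11328 in diplonema, and the background differed where this number was made more alike or equal. With lists of equal length, 51.0% of all genes ranked higher in diplonema than in pachynema, with a median change of 0.463 points, beside 8 of the 10 genes and 9.24 points. Among genes called in all 3 lists the share was 52.8% and the median 1.10 points, beside 8 of the 10 and 10.3 points. For diplonema against leptonema/zygonema the shares of all genes were 51.6% and 52.2% under these settings, beside 7 of the 10 under both. As percentiles among all peaks, 27.2% of all genes ranked higher in diplonema than in pachynema, with a median change of -6.20 points, beside 5 of the 10 genes and a median of -0.512 points, so that the direction over the 10 genes turned under this setting. The 10 genes did not move as 1 group: from leptonema/zygonema to diplonema their changes ran from -42.6 to 48.9 points. In the scores themselves, the 4 axis genes and Sycp1 were highest in diplonema, the list with the lowest scores, and the 4 central element genes and Trip13 were lowest there. Over the 10851 protein-coding genes called in all 3 lists, the median highest promoter score was 1.102, 1.095 and 0.852. The share of these genes with their lowest or highest score in diplonema was not counted.

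**Figure D1:**
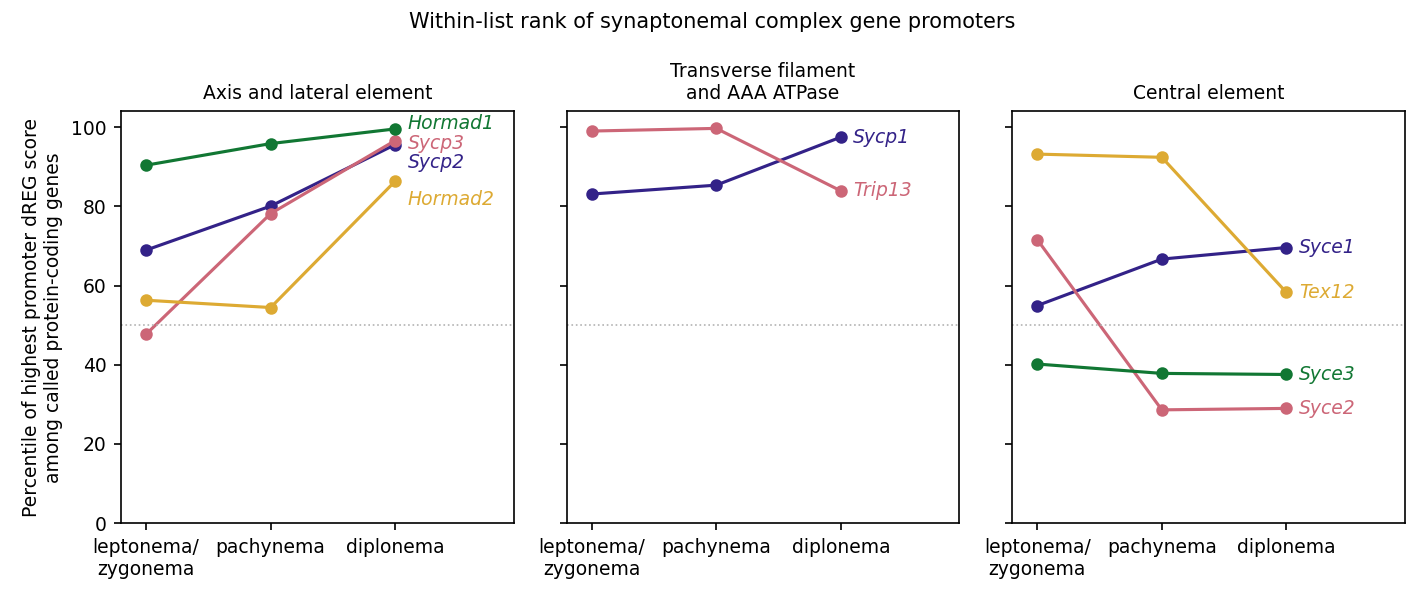
Percentile of the highest promoter dREG score of each gene among the protein-coding genes called in the same list (vertical axis, percent) in the 3 substages (horizontal axis), with 1 point per gene and pooled list, lines joining points of 1 gene, and a dotted line at the 50th percentile. The 4 axis genes lie between 47.7 and 90.4 in leptonema/zygonema and between 86.4 and 99.6 in diplonema, whereas Syce2 and Tex12 are lower in diplonema than in leptonema/zygonema.

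The 4 genes of the chromosome axis among the 10 ranked higher in diplonema than in either other list. Their median percentile was 62.7, 79.2 and 96.2. All 4 were higher in diplonema than in pachynema, where 40.0% of all genes were, or 51.0% with lists of equal length. This did not hold for all genes of the axis. Among the cohesin genes described further below, Rec8 and Stag3 ranked lowest in diplonema and Smc1b ranked highest there. Sycp3 encodes a core component of the axial and lateral elements and lies on chromosome 10, from 88459569 to 88473236 on the plus strand (ENSMUSG00000020059.9). Its highest promoter score was 1.03, 1.21 and 1.23. These scores stood at the 47.7th, 78.2nd and 96.7th percentile, so that a gene near the middle of the first list was close to the top of the last, a change of 48.9 points. Sycp2, whose product binds SYCP3 in the lateral element, lies on chromosome 2, from 178345293 to 178407685 on the minus strand (ENSMUSG00000060445.11). Its highest score was 1.17, 1.22 and 1.22, at the 69.0th, 80.1st and 95.6th percentile. The score itself hardly differed between pachynema and diplonema, while the scores of other genes in the diplonema list were lower (median over called genes of 1.03 in pachynema and 0.835 in diplonema).

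Hormad1 encodes a HORMA-domain protein of unsynapsed axes that takes part in break formation and in the monitoring of synapsis. It lies on chromosome 3, from 95559677 to 95587671 on the plus strand (ENSMUSG00000028109.14). Its score was 1.29, 1.32 and 1.33, at the 90.4th, 95.9th and 99.6th percentile, and in diplonema it stood 46th of 11328 called genes. Hormad2, which encodes the related protein of unsynapsed axes, lies on chromosome 11, from 4345814 to 4441105 on the minus strand (ENSMUSG00000020419.11). Its score was 1.09, 1.07 and 1.12, at the 56.3rd, 54.5th and 86.4th percentile. The percentile of Hormad2 was thus 1.85 points lower in pachynema than in leptonema/zygonema and 31.9 points higher in diplonema than in pachynema. The median percentile of spermatid marker genes was also higher in diplonema. Of the 5 markers listed, 4 were called in each list, and their median percentile was 30.8, 28.5 and 53.4. Prm1 and Prm2 share 1 highest peak, and with it counted once the median of the 3 values was 42.1, 42.4 and 66.6. Acrv1 went the other way, from the 93.1st percentile in leptonema/zygonema to the 66.6th in diplonema. The part of spermatids in the axis gene ranks was not tested.

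Sycp1, which encodes the transverse filament, lies on chromosome 3, from 102818499 to 102936100 on the minus strand (ENSMUSG00000027855.13). Its highest score was nearly the same number in all lists, 1.25 in leptonema/zygonema, then 1.24 in pachynema and 1.25 in diplonema. Its percentile was 83.1, 85.4 and 97.5. Trip13, the gene of the AAA ATPase, lies on chromosome 13, from 73911347 to 73937784 on the minus strand (ENSMUSG00000021569.10). It had the highest scores of the 10 genes in leptonema/zygonema (1.41, 99.1st percentile) and in pachynema (1.42, 99.7th percentile), where it stood 36th of 13272 called genes. In diplonema its score was 1.10, at the 83.9th percentile. Trip13 is also the only 1 of the 10 genes whose promoter peak lay under 1000 bp from the TSS of another protein-coding gene. The TSS of Brd9, which encodes a bromodomain subunit of a SWI/SNF chromatin remodelling complex, is 27 bp away on the opposite strand. A single peak covered this pair in each list, so initiation at Trip13 and at Brd9 cannot be told apart in these scores. Sharing of this kind was found for 21.7%, 21.5% and 23.2% of called protein-coding genes in the 3 lists.

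Of the 4 central element genes, 3 ranked lower in diplonema than in leptonema/zygonema, where 56.3% of all genes did. For 1 of the 3, Syce3, the change was -2.64 points, and it turned to 5.81 points higher with lists of equal length and to 5.19 points higher among genes called in all 3 lists, which left 2 of the 4. Their median percentile was 63.3, 52.3 and 47.9. Syce2 encodes a central element protein that forms a complex with TEX12, and lies on chromosome 8, from 84872111 to 84888221 on the plus strand (ENSMUSG00000003824.12). Its highest score was 1.18, 0.790 and 0.631, at the 71.6th, 28.6th and 29.0th percentile. The 1.18 belonged to the peak over its first TSS, from 84871751 to 84872300. The peak over that TSS in pachynema, from 84871871 to 84872300, had a score of 0.400, and in diplonema, from 84872061 to 84872510, a score of 0.345. The highest score belonged instead to a peak 343 bp downstream of the nearest annotated TSS in pachynema, and 93 bp downstream in diplonema. The difference between pachynema and diplonema was 0.366 points and changed sign under 7 other settings, whereas the rank in leptonema/zygonema was above both in all of them.

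Tex12, the partner of Syce2, lies on chromosome 9, from 50556819 to 50561325 on the minus strand (ENSMUSG00000032065.6). Its score was 1.32, 1.29 and 0.907, at the 93.2nd, 92.4th and 58.3rd percentile. Syce2 was thus already below the 50th percentile in pachynema, and Tex12 stayed above it in all 3 lists. Syce3, whose product is needed to start the assembly of the central element, lies on chromosome 15, from 89390174 to 89410503 on the minus strand (ENSMUSG00000078938.9). It was the lowest of the 10 genes in leptonema/zygonema, with a score of 0.962, and had 0.908 in pachynema and 0.721 in diplonema. Its percentiles were 40.2, 37.8 and 37.6. Syce1, whose product binds SYCE3 and SIX6OS1, lies on chromosome 7, from 140777229 to 140787852 on the minus strand (ENSMUSG00000025480.5). Its score was 1.08, 1.14 and 0.993, at the 55.0th, 66.7th and 69.6th percentile, so that it ranked higher in diplonema than in leptonema/zygonema.

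The promoter of each gene was covered by 1 to 4 peaks. In leptonema/zygonema and in pachynema all 10 genes had 2 or more promoter peaks, against 76.3% and 78.3% of called genes, and in diplonema 6 of the 10 did, against 68.7%. Hormad1 had 2, 2 and 1 peaks, Hormad2 2, 2 and 1, Tex12 3, 2 and 1, and Trip13 2, 2 and 1. For Hormad2, the single diplonema peak, from 4440531 to 4441710, covered 1180 bp and overlapped both peaks of each earlier list. For Tex12 the single diplonema peak of 560 bp lay over the TSS, and no diplonema peak overlapped the one further into the gene. The median width of the promoter peaks was 500 bp, 480 bp and 570 bp, against 460 bp, 460 bp and 470 bp for all peaks. The midpoint lay downstream of the annotated TSS of the gene nearest to the peak in 19 of 26, 18 of 26 and 11 of 18 peaks. Where a peak held more than 1 TSS, a single one of them was used, not always the TSS used for the gene. The share over the promoter peaks of all genes was not counted. Many peaks were separated by gaps of 20 bp or less. Merged across such gaps, the promoter peaks numbered 13, 13 and 11.

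**Figure D2:**
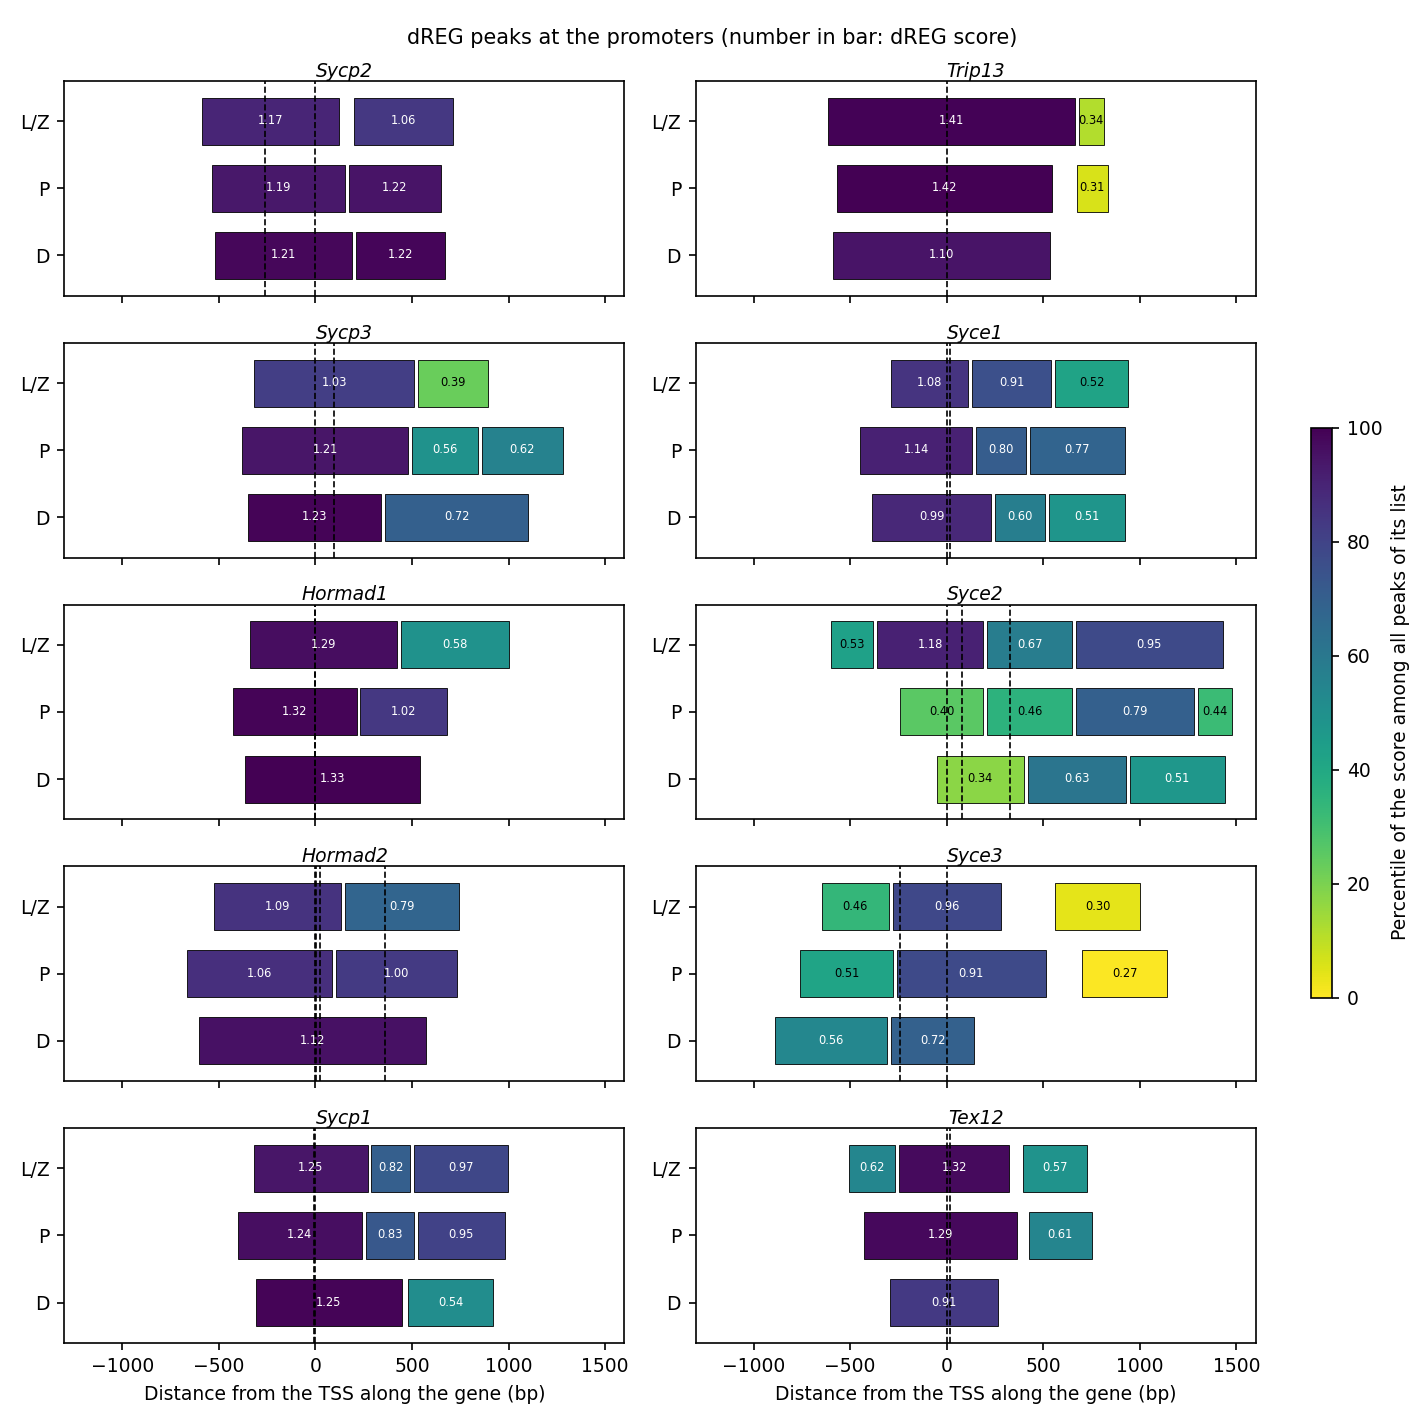
Promoter peaks of the 10 genes in leptonema/zygonema (L/Z), pachynema (P) and diplonema (D), as bars along the distance from the TSS used for the gene (horizontal axis, bp, downstream to the right), with the dREG score printed in each bar, colour giving the percentile of that score among all peaks of the list, and dashed lines at annotated TSSs. A peak covers a TSS in every row, and the Syce2 peak at the first TSS goes from a score of 1.18 in leptonema/zygonema to 0.345 in diplonema.

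The highest peak was at the same place in all 3 lists for 8 of the 10 genes, in that the highest peaks of every pair of lists overlapped. This was true of 80.5% of the 10851 protein-coding genes called in all lists. The exceptions were Syce2, described above, and Sycp2. At Sycp2 the highest peak of leptonema/zygonema lay over the TSSs, from 178407301 to 178408010. In pachynema and diplonema the neighbouring peak inside the gene was the highest, from 178406771 to 178407250 and from 178406751 to 178407210. These peaks inside the gene scored 1.06, 1.22 and 1.22 and the peaks over the TSSs 1.17, 1.19 and 1.21, so the peaks of the pair were close in score in pachynema and in diplonema.

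The annotation gives 29 TSS positions for the 10 genes, and 22 of them lay inside a peak in each list. The remaining 7 were internal starts of Sycp1, Sycp2, Hormad2 and Trip13, and 6 of these had no peak under 1000 bp in any list. The distance to the nearest peak was 31698 bp in leptonema/zygonema for the internal start of Sycp1 at 102833883, and 31441 bp for that of Sycp2 at 178375270. The seventh, in Trip13 at 73936197, was 774 bp from a peak in leptonema/zygonema, then 754 bp in pachynema and 1054 bp in diplonema. Initiation in these lists was thus seen at the 5′ starts of the genes and not at these internal starts.

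Gene-body peaks numbered 7 in leptonema/zygonema, then 5 in pachynema and 1 in diplonema, in 4, 3 and 1 of the 10 genes. They numbered 2, 2 and 1 with lists of equal length, and 18, 18 and 8 when a promoter peak had to hold the TSS. Over all protein-coding genes, 28.6%, 26.9% and 15.8% had a gene-body peak in these lists and 33.8% in any list, and 5 of the 10 genes had one in any list. Peaks that overlapped between lists or were split within 1 list formed 8 sites. All 8 were in introns, against 71.3% of 19752 such sites of all protein-coding genes that overlapped no exon. A single substage held 5 of the 8, against 51.3%, and all 3 substages held 1 of the 8, against 20.2%. Sycp1 held 4 of the sites. The site in all 3 lists was in an intron of Sycp1, from 102865561 to 102866370 on chromosome 3, with scores of 1.24, 1.12 and 1.04. These scores stood at the 93.8th, 89.4th and 91.6th percentile of all peaks of their lists, beside the 94.3rd, 96.2nd and 99.1st for the promoter peak of the gene, so that the site ranked near the promoter in leptonema/zygonema and further below it in the later lists. The nearest annotated TSS belonged to Gm33866, 14410 bp away. Within the 610 bp shared by the 3 peaks the GC content was 47.5%, there were 5 CpGs, and 82.1% of the bases were marked as repeats in the reference genome. How the mapping of reads in repeats bears on this peak was not tested. The middle 200 bases of the shared part are shown, since this is the only intronic site that all lists held. They had no match to the searched sequences.
Sycp1 intron, chr3:102865785-102865984, minus strand: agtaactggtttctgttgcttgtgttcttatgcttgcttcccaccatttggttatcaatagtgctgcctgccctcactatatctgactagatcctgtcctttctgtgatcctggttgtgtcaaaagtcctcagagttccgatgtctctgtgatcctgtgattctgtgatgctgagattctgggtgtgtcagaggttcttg

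Sycp1 also had intronic peaks in leptonema/zygonema from 102886621 to 102887080 (score 0.334), in pachynema from 102872681 to 102872950 (score 0.555), and in both lists between 102893891 and 102894420 (scores 0.482 and 0.313). Trip13 had a site between 73917051 and 73917790, with a score of up to 0.832 in leptonema/zygonema and 0.347 in pachynema, and none in diplonema. Hormad1 had an intronic peak in leptonema/zygonema from 95564281 to 95564620 (score 0.437), 4603 bp from its TSS. Hormad2 had one in pachynema from 4375571 to 4375880 (score 0.408), and Syce3 one in leptonema/zygonema from 89409031 to 89409240 (score 0.322). The Syce3 peak lay 1023 bp from the TSS and so just outside the limit for a promoter peak, whereas a Syce2 peak in pachynema, 973 bp away with a score of 0.437, lay just inside it. No gene-body peak was seen in Sycp2, Sycp3, Syce1, Syce2 or Tex12.

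**Figure D3:**
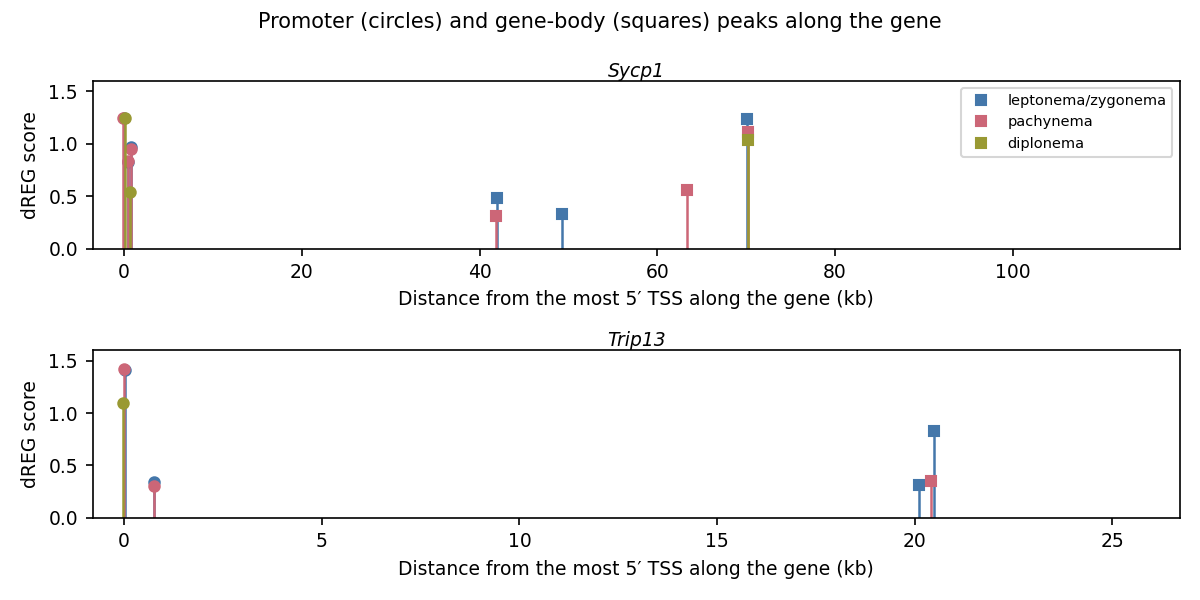
dREG score (vertical axis) of the promoter peaks (circles) and gene-body peaks (squares) of Sycp1 and Trip13 against distance from the most 5′ TSS along the gene (horizontal axis, kb), coloured by substage. The intronic Sycp1 site holds a peak in all 3 substages, with scores from 1.04 to 1.24, and the Trip13 site holds peaks in leptonema/zygonema and pachynema.

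The promoter sequence from 250 bp before to 50 bp after the TSS was searched on both strands for 7 sequences. The TSS was the one nearest the centre of the highest promoter peak, and 21938 protein-coding promoters of the same length were searched in the same way, 14072 of them of genes called in any list. The E-box CACGTG, which is bound by several helix-loop-helix factors, was found in Sycp1, Sycp3, Tex12 and Hormad1, 4 of the 10 genes, against 7.93% of all promoters and 10.2% of called ones. GCGGGAA, an E2F sequence, was found in Sycp3, Tex12 and Hormad1, 3 of the 10, against 6.08% of all and 8.34% of called promoters. These 3 genes held both, which was true of 0.583% of all and 0.853% of called promoters. The pair was looked at because the single counts had been seen, so it is given as a description. In Hormad1 the E-boxes began at -58 and -21 and the E2F sequence at -96, counted with the TSS as +1. In Sycp3 they began at -46 and -25 and at -129, and in Tex12 at -36 and at -88. The order was the same in the 3 genes, with the E2F sequence further from the TSS. In Sycp1 the E-box began at -104. The genes that shared both did not share a course of rank: Sycp3 and Hormad1 were highest in diplonema and Tex12 was lowest there.

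GGCNGTT, the sequence of MYB factors, was found in Sycp2 and Syce1, 2 of the 10 genes, against 12.8% of all promoters and 14.2% of called ones. GTTGCCA, an RFX sequence, was found in Sycp2 and Syce3, against 4.50% and 5.03%. In Sycp2 the match to GGCNGTT at -10 and that to GTTGCCA at -6 overlapped. The TSS used for Sycp2, at 178407422, lies downstream of another annotated TSS of the gene, at 178407685. That used for Syce3, at 89410263, lies downstream of one at 89410503. The matches in Sycp2 and Syce3 are therefore inside the annotated genes and not upstream of their first TSS. TATAAA was found in Sycp3 alone, at -245 on the opposite strand, against 12.1% of all promoters and 6.79% of those of called genes. The cAMP response element TGACGTCA was found in none of the 10, against 2.63% and 3.54%, which says only that these letters are not in these windows. The GC content of the 10 promoters ran from 54.3% to 67.7%, with a median of 60.8% beside 61.0% for promoters of called genes, and their CpG number ran from 12 to 32, with a median of 20.5 beside 20.

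CNCCTCAG is the sequence reported for STRA8, a regulator of entry into meiosis. Within the 300 bp promoter it was found in Sycp1 and Hormad2, 2 of the 10 genes, against 8.54% of all promoters. Within 500 bp on either side of the TSS it was found in 9 of the 10 genes, all but Sycp2, against 24.9% of all promoters and 27.6% of promoters of called genes. The match nearest the TSS is shown for each of the 9 genes, with 10 bases on either side, 5′ to 3′ along the gene and with the match in capitals, so that its 2 orientations can be compared.
Sycp1, chr3:102936051-102936078, minus strand: ccaggaggttCTGAGGGGaagctcacgg
Sycp3, chr10:88459849-88459876, plus strand: caggcggggaCTGAGGGGagcggaggtc
Syce1, chr7:140787733-140787760, minus strand: ctccacgggcCTGAGGGGgccagaggta
Syce2, chr8:84872209-84872236, plus strand: gcagagggcgCTGAGGCGggaaaagacg
Syce3, chr15:89410105-89410132, minus strand: ttcttggggtCTGAGGCGaggtcccagc
Tex12, chr9:50561258-50561285, minus strand: tgctgcggctCTGAGGCGgcaggtcgtg
Hormad1, chr3:95559864-95559891, plus strand: gaagcgggtcCTGAGGGGgcgacgaggg
Hormad2, chr11:4441174-4441201, minus strand: gcaaggcctgCTGAGGGGccaaccttag
Trip13, chr13:73937354-73937381, minus strand: cagcgtcccaCCCCTCAGtacggcccca
In 8 of the 9 genes the match nearest the TSS reads CTGAGGNG along the gene, the reverse complement of the searched letters, and in Trip13 it has the other orientation. Of all 19 matches in these windows, 12 read CTGAGGNG and 7 had the other orientation, among them 4 of the 5 in Syce3. The match nearest the TSS lay downstream of the TSS in 8 of the 9, from +23 in Sycp1 to +414 in Trip13, and at -86 in Hormad2. In 8 of the 9 genes this match was inside a promoter peak in all 3 lists, the windows having been placed at the TSS nearest the highest peak. At Syce3 the match, from 89410115 to 89410122, was inside a peak in leptonema/zygonema and pachynema and lay across the edge of the diplonema peak at 89410121. The orientation of the matches, their side of the TSS and their place in a peak were not counted over other promoters. They therefore cannot be read as particular to these genes. Stra8 itself was called in leptonema/zygonema (score 0.755) and in pachynema (0.580) and not in diplonema.

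A list of 8 other genes of the chromosome axis and of synapsis was set beside the 10. Of these, 5, 6 and 6 were called in the 3 lists, and their median percentile among called genes was 81.1, 63.1 and 36.0. In diplonema the call of Rec8 was lost with scores of at least 0.5, and that of Syce1l with this limit, with promoter peaks under 500 bp and with the TSS inside the peak. Six6os1, which encodes the remaining central element protein, was called in all lists with scores of 1.25, 1.25 and 1.21, at the 84.7th, 86.2nd and 95.3rd percentile. Its ranks were nearer those of Sycp1 than those of Syce2, Syce3 or Tex12. Rec8, a meiotic kleisin subunit of cohesin, had scores of 1.37, 1.07 and 0.292. Its percentile of 97.3, 55.8 and 1.28 gave the widest range of the listed genes. Stag3, a meiotic cohesin subunit, had 1.23, 1.16 and 0.809, at the 81.1st, 70.5th and 46.9th percentile, and shared a promoter peak with Gpc2 and Gm43720. Smc1b, another meiotic cohesin subunit, had 1.22, 1.31 and 1.25, at the 78.5th, 94.8th and 97.4th percentile, and shared a promoter peak with Ribc2. In a shared peak, initiation at the neighbouring genes cannot be told apart.

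Syce1l, a gene related to Syce1, was not called in leptonema/zygonema and had scores of 0.684 in pachynema and 0.352 in diplonema, where its peak lay 533 bp from the TSS. Fkbp6, which encodes an immunophilin found on synapsed chromosomes, had scores of 0.877, 1.06 and 0.587. Rad21l, another meiotic kleisin, and Iho1, whose product binds HORMAD1, were not called in any list. This depended on the annotation. With TSSs of RefSeq, Iho1 was called in all lists and Rad21l in leptonema/zygonema and pachynema, so the 2 genes cannot be read as lacking initiation. The calls of the 10 genes were the same with both annotations.

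**Figure D4:**
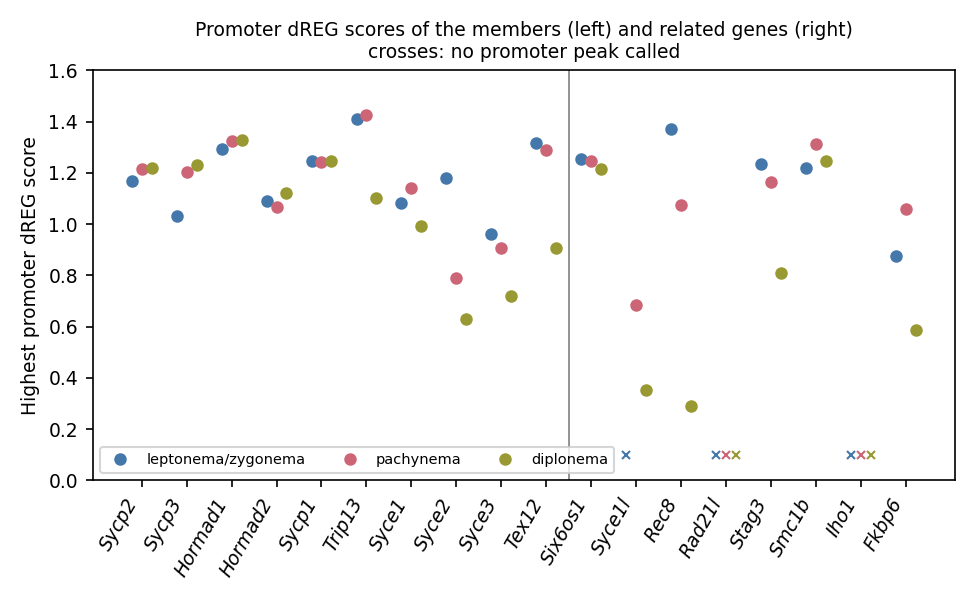
Highest promoter dREG score (vertical axis, not scaled between lists) of the 10 synaptonemal complex genes and of 8 related genes in each substage, with 1 point per gene and pooled list and crosses for genes without a promoter peak. The 4 central element genes and Trip13 have their lowest score in diplonema, as do Rec8 and Stag3, whereas the 4 axis genes and Sycp1 have their highest there.

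Genes of other cells that the fractions could hold were looked at in the same way. None of 4 Leydig cell genes was called in any list, including Cyp17a1 and Star of steroid synthesis. Of 4 Sertoli cell genes, 2, 3 and 3 were called, with a median percentile of 20.7, 19.8 and 16.3. Sox9 had scores of 0.385, 0.652 and 0.564. Wt1 had no peak in leptonema/zygonema and later scores of 0.408 and 0.311, and the highest, Gata4, had 0.925, 0.946 and 0.482. Amh, which marks Sertoli cells of the young testis, was not called. Of 5 genes of spermatogonia, 4, 4 and 3 were called, with a median percentile of 39.6, 40.3 and 4.88. Among them Kit, a receptor of differentiating spermatogonia, had scores of 1.04, 0.999 and 0.343. Dmrt1 had 1.07, 1.06 and 0.332, and Zbtb16 0.845, 0.857 and 0.685. Gfra1, a receptor of early spermatogonia, was not called. Of the 5 spermatid genes, the transition protein gene Tnp1 had scores of 0.981, 0.956 and 1.02, at the 42.1st, 42.4th and 73.9th percentile. The protamine genes Prm1 and Prm2 shared their highest peaks, with 0.676, 0.561 and 0.747, and Tnp2 was not called. Acrv1, a gene of the acrosome, went the other way, with 1.32, 1.30 and 0.972. A called promoter does not show which cells of a fraction used it. The part of spermatogonia in the lower diplonema ranks of Syce2, Tex12 and Rec8 was not tested.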

How the data were processed

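leChRO-seq was made from 4 libraries each of leptonema/zygonema, pachynema and diplonema, which the labels name. The authors used PRINSEQ lite to collapse reads of the same molecular identifier, cutadapt for adapters, BWA for mapping (mm10 plus the ribosomal RNA repeat) and bedtools, and ran dREG with default settings on the merged libraries of each substage. Versions are not given in the sources used here. The labels call the reads single-end and the methods paired-end.

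Each deposited peak carries a dREG score, with no fixed range, and a p-value, all at most about 0.05, whose adjustment is not given in the sources used here. The deposited p-value was 0 for 29.4%, 27.8% and 24.1% of peaks. A further column of positions and the signal tracks were not used here. The peak lists carry no counts. How many reads mapped is stated as a range shared by the assays of the study, beside per-library normalization factors, and neither was used here as a depth.

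Positions are 1-based on mm10. Calls, percentiles and motif counts were computed with Python 3.11.15, numpy 2.4.6, pandas 2.3.3 and pysam 0.24.0 and drawn with matplotlib 3.10.9. A percentile among called genes is the share of the other called protein-coding genes with a lower score, with ties at their average rank. Overlap needed 1 bp. The steps were tested on simulated data. All 10 genes were found by symbol in the RefSeq promoter table. The nearest RefSeq TSS lay from 0 bp (Syce2 and Syce3) to 236 bp (Sycp2) from the TSS used here.

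The genes and lists were chosen with earlier results of these data known. All 10 genes were to be named. Of the other lists, genes whose call differed between substages and at most 4 others in list order were to be named, with neighbours under 1000 bp from a promoter peak. Smc1b, Iho1, Fkbp6 and Acrv1 were named beyond this rule after their values were seen. Alternatives were other TSS distances, TSS sets, score and p-value limits, lists of equal length, other ranks and a wider motif window. RefSeq TSSs, the merging of peaks 20 bp apart or closer, and the alternatives for diplonema against leptonema/zygonema were chosen after seeing the data.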

Additional observations from a re-analysis of the deposited data

How the results depend on the processing

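No paired analysis was possible because the peak lists analysed here were called on merged libraries. For the same reason no single library was left out, and data of single libraries were not analysed here. Of 161 recomputed counts, 142 stayed within 1.5 times the value reported, and the calls of the 10 genes did so under each alternative. With promoter peaks taken under 500 bp, gene-body peaks numbered 11, 10 and 3 in leptonema/zygonema, pachynema and diplonema. With the TSS inside the peak, promoter peaks numbered 12, 12 and 10 and gene-body peaks 18, 18 and 8. In leptonema/zygonema and pachynema, gene-body peaks numbered 2 and 2 with scores of at least 0.5, and 2 and 2 with lists of equal length. In pachynema they numbered 3 with p-values of at most 0.01. Merging peaks 20 bp apart or closer gave 13, 13 and 11 promoter peaks. In the window of 500 bp on either side of the TSS, STRA8 matches were in 9 genes and TATA matches in 4. Over all promoters the shares in this window were 24.9% for STRA8 and 31.2% for TATA. These settings change by their own construction which peaks or bases are counted.

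Of 330 recomputed rank changes, 14 reversed in sign. The others kept their sign, many of them at a different size. For Syce2 from pachynema to diplonema (0.366 points), the change was -4.47 with the TSS inside the peak, -0.00677 with protein-coding transcripts only, -6.06 with scores of at least 0.5, -0.629 with p-values of at most 0.01, -0.0198 with RefSeq TSSs, -8.61 as a percentile among all peaks and -5.68 with the peak nearest to the TSS. For Syce3 from pachynema to diplonema (-0.277) it was 8.29 with lists of equal length and 9.69 among genes called in all 3 lists, and from leptonema/zygonema to diplonema (-2.64) it was 5.81 and 5.19 under these settings. As percentiles among all peaks, Tex12 changed by 0.325 and Hormad2 by 1.18 from leptonema/zygonema to pachynema, and Syce1 by -1.99 from pachynema to diplonema. The cause of these reversals was not tested. The higher rank of the 4 axis genes in diplonema than in pachynema reversed under none of the alternatives, with Hormad1 between 0.970 and 4.59 points and Hormad2 between 8.89 and 41.0. Pooled lists without counts give no precision for any single rank.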

Other observations

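Further genes of spermatocytes, listed as markers of the cell type, were called in every list, 4 of 4 in each, with a median percentile among called genes of 58.7, 57.5 and 46.2 in leptonema/zygonema, pachynema and diplonema. Spo11, which encodes the enzyme of meiotic break formation, had highest promoter scores of 1.11, 1.05 and 0.871, at the 59.0th, 52.8th and 54.1st percentile. Dmc1, the gene of the meiotic recombinase, had 1.11, 0.768 and 0.507, at the 58.4th, 27.1st and 18.3rd. Piwil1, which encodes a PIWI protein of pachytene piRNAs, had 0.796, 1.12 and 1.26, at the 26.9th, 62.3rd and 98.3rd. Mybl1, the gene of the transcription factor A-MYB, had 1.13, 1.16 and 0.727, at the 62.2nd, 69.7th and 38.2nd. These are values of single pooled lists, and no relation between the genes was tested.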
